A study of Mus musculus with 18 samples.

Results

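Chromatin accessibility was examined at 9 protein-coding genes of MHC class II antigen presentation, out of 21938 protein-coding genes in the GENCODE M21 annotation of the mouse genome (mm10). They were chosen by name: the chain genes H2-Aa, H2-Ab1 and H2-Eb1, the H2-DM genes H2-DMa, H2-DMb1 and H2-DMb2, the H2-O beta chain gene H2-Ob, the invariant chain gene Cd74 and Ciita. Every entry of the accessible-region lists inside a gene body or within 50000 bp of the gene's most upstream start site was collected, and the alternative start sites of Ciita were kept apart. These windows held 102 of 82391 reference peaks, 107 of 84660 summits and 70 of 59617 extended regions, which are the peaks widened on both sides and merged.

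The lists came from ATAC-seq, in which the transposase Tn5 inserts sequencing adapters into open DNA, of mouse bone marrow-derived macrophages (BMDMs). The marrow was taken from male C57/BL6 mice aged 6 to 8 weeks, with no genetic change named in the methods. All cells were first kept for 1 h with DMSO, the solvent control, and were then left untreated or given 10 ng/mL of LPS or of IL-4 for 30 min, 1 h, 2 h or 4 h. This makes 9 groups of 2 libraries, 18 libraries in all, with 4 groups for each stimulus and 1 without. LPS is a bacterial cell wall component that activates macrophages, and IL-4 is a cytokine that drives their alternative activation. The lists are pooled over all libraries and hold no value per library, so that no depth, replicate spread or comparison of stimuli and time points could be derived. A listed peak may have been open in 1 group or in all. The summit score is the only measurement, and its scale is not stated in the sources used here.

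MHC class II molecules are pairs of an alpha and a beta chain that carry peptides from engulfed proteins to the cell surface for CD4+ T cells. Cd74 guards the peptide groove until its proteases remove it, H2-DM then exchanges the remaining fragment for other peptides, and H2-O restrains H2-DM. Class II promoters carry a conserved X box and Y box, bound by the RFX complex and by NF-Y, and the coactivator CIITA, which does not bind DNA itself, is recruited to these factors. Ciita is transcribed from alternative promoters that are used in different cell types, one of them known for its response to interferon gamma.

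The box sequences are shown first, because they are the part of these promoters that the accessibility data can be set against. A pair was defined as the letters CCTAGCAAC of the X core with up to 2 mismatches, followed after 22 to 34 bases by the Y core ATTGG, on either strand. Each line gives a pair 5′ to 3′ from the X to the Y core, with both cores in capitals. Of the 5 pairs printed whole, H2-Ob had 0 mismatches to the X core, H2-Eb1 had 1, H2-Aa and H2-DMb2 had 2, and H2-Ab1 had 3, which is beyond the limit.
H2-Ob, chr17:34238814-34238852, plus strand: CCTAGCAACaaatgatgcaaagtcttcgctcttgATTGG
H2-Eb1, chr17:34305772-34305812, plus strand: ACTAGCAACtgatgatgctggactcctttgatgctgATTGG
H2-Aa, chr17:34287867-34287908, minus strand: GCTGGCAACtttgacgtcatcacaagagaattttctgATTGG
H2-DMb2, chr17:34145122-34145163, plus strand: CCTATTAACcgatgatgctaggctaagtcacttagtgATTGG
H2-Ab1, chr17:34263146-34263186, plus strand: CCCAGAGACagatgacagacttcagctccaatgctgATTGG
The pairs of H2-DMa and H2-DMb1 lay in exons annotated as untranslated, and their X core with the next 8 bases is given alone.
H2-DMa, chr17:34135510-34135551, plus strand: CTCAGCGACtgatgatg
H2-DMb1, chr17:34153093-34153134, plus strand: CCTAGTAACtgatgatg
The stretch after the X core is known as the X2 box, bound by factors of the CREB family. The letters ATGATG stood within the 12 bases after the X core at H2-Ob, H2-Eb1, H2-DMb2, H2-DMa and H2-DMb1, and at neither H2-Aa nor H2-Ab1. Of the 2466 protein-coding genes with a pair of up to 3 mismatches within 250 bp upstream, 11 had these letters (0.446%). Among them were 4 of the 6 class II genes with such a pair. H2-DMb1 was outside this count, because its pair does not lie upstream of its start site. The letters were read from the sequences above, so that these shares are a description and not a test. The letters are not the CREB consensus itself, whose letters TGACGTCA the H2-Aa line holds in that place. The X and Y cores searched are those known from class II promoters, so that finding them at class II genes is a description of the promoters and not an independent result.

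With up to 2 mismatches, a pair lay within 250 bp upstream of an annotated start site in 4 of the 9 genes (H2-Aa, H2-Eb1, H2-DMb2 and H2-Ob), where 1.75% of all protein-coding genes had one. With up to 3 mismatches, H2-Ab1 and H2-DMa were added, which makes 6 genes, but 11.2% of all genes then had a match. No match of either kind was found in the 250 bp upstream of H2-DMb1, Cd74 or Ciita. In H2-DMb1 the pair printed above, with 1 mismatch, lay downstream of the annotated start site, and the summit inside it was 45 bp from that site. The upstream pairs of these 6 genes shown above ran in the direction of transcription, with 25 to 28 bases between the cores. H2-Ob had further pairs with 3 mismatches, upstream of start sites of noncoding transcripts, at chr17:34239574, chr17:34241819 and chr17:34241973. They had 26, 28 and 32 bases between the cores, and the one at chr17:34241819 ran against transcription.

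Of the pairs shown above, all but 1 lay inside a reference peak. How often this holds over all genes with a pair is not given here. The summit, the point of highest signal in a peak, lay inside the pair at H2-Aa, H2-Eb1, H2-DMa and H2-DMb1, and it lay 21 bp and 19 bp beyond the Y core at H2-Ab1 and H2-Ob. At all of these 6 genes the whole pair was inside the reference peak. The H2-DMb1 pair was found only by a search within 100 bp of listed summits, so that its closeness to a summit was given by the search. The exception was H2-DMb2, whose pair lay 114 bp upstream of the start site at chr17:34145236, from which 2 coding transcripts begin, outside every reference peak. The nearest summit was 1457 bp from it. The further H2-Ob pairs with 3 mismatches, at noncoding start sites, did not overlap a reference peak either. Their nearest summits were 164 to 322 bp away.

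**Figure D1:**
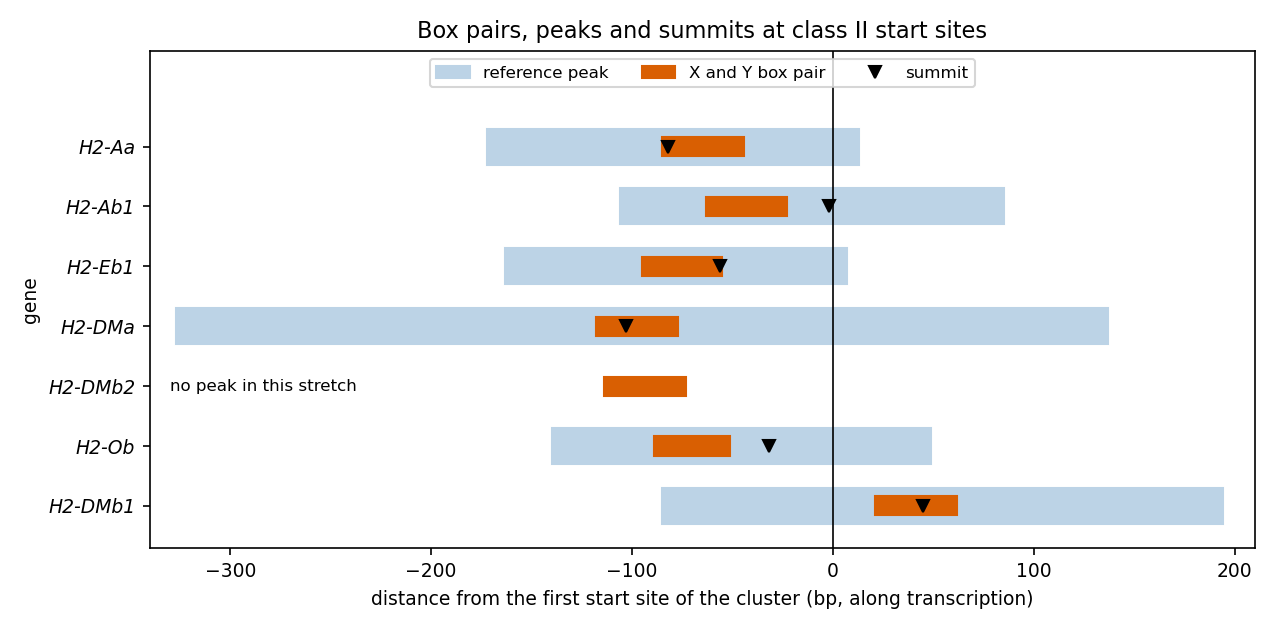
Position of the box pair (orange), the reference peak (light blue) and the summit (triangle) at start sites of 7 class II genes, in bp from the first start site of the cluster along transcription. The pair lies inside the peak at 6 of the 7 genes, and H2-DMb2 has no peak in the stretch shown. The H2-DMb1 pair was found by a search around listed summits, the others by a search upstream of start sites.

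H2-DMb1 and H2-DMb2 are near copies of each other, which touches what short reads can show there. The reads had 76 bases and were kept down to 38 bases after trimming. Of all 76-base stretches in the gene body, 87.8% of H2-DMb1 and 87.2% of H2-DMb2 occurred at a single place in the genome, against 96.6% to 100% in the other 7 genes. At 38 bases the shares were 72.2% for H2-DMb1, 70.7% for H2-DMb2 and 92.2% to 99.1% for the others. Within 250 bp of the H2-DMb2 start site without a peak, 100% of 76-base and 90.7% of 38-base stretches had a single place, and around the H2-DMb1 start site the shares were 100% and 89.9%. Of the 107 summits in the windows, all 107 had a single place at 76 bases, and 106 at 38 bases, the exception being an intronic summit of H2-DMb1 at chr17:34159166 with a score of 515.

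At all 9 genes a reference peak lay no more than 1000 bp from a start site, where 56.5% of all protein-coding genes had one. Their 47 annotated start sites formed 24 clusters when sites within 500 bp of each other were joined, and 18 of the 24 clusters had a peak, where 33.3% of all such clusters did. Among the 13 clusters with a coding transcript, 11 had a peak. The exceptions were the most upstream cluster of Ciita and the H2-DMb2 cluster named above. The 33.3% also covers clusters with noncoding transcripts only. It is therefore no background for these 13, and the share over all clusters with a coding transcript is not given here. The score of the summit nearest to a start site ranged from 234 to 2021 over the 18 clusters, with a median of 846.5. Over the 16945 start site clusters of all coding genes with a summit within 1000 bp, the median was 1236 and the quartiles were 791 and 1670.

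The genes of the peptide-binding chains had start site summits of modest score. The H2-Aa start site at chr17:34287823, the alpha chain gene, had its summit 82 bp upstream with a score of 727, above 21.4% of all start site summits. The coding start site of the beta chain gene H2-Ab1 at chr17:34263209 had its summit 2 bp upstream with a score of 573, above 13.1%. The beta chain gene H2-Eb1, with its start site at chr17:34305867, had its summit 56 bp upstream with a score of 748, above 22.5%. All 3 scores lay under the lower quartile of start site summits. H2-Ab1 had a higher summit elsewhere: a noncoding transcript starts upstream at chr17:34257689, and its summit 83 bp downstream scored 1284, above 52.9%.

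The accessory genes spread over the whole range. H2-DMa, the alpha chain of the peptide exchanger, had the best scored summit of all 107, 103 bp upstream of its start site at chr17:34135628, with 2021, above 91.9% of start site summits. More H2-DMa start sites lay near the neighbouring gene Brd2, which is read in the opposite direction, with summits that scored 1890 and 1644 and cannot be assigned to 1 of both genes. H2-DMb2 had a summit that scored 1877 at chr17:34143203, 104 bp upstream of the start site of another coding transcript at chr17:34143307, above 85.6%. The summit at the H2-DMb1 start site scored 990, above 35.6%, and that of Cd74, 145 bp upstream of chr18:60803848, scored 1002, above 36.1%.

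H2-Ob was the other extreme. The summit 32 bp upstream of its coding start site at chr17:34238903 scored 234, above 0.602% of all start site summits, although its pair matched the X core in all 9 letters. H2-DMa, with 3 mismatches in the core, had the highest score. Across these genes the scores did not follow the order of the match to the X core. A link between match and score was not tested. The other start site summits of H2-Ob belonged to noncoding transcripts that start inside the gene and scored 990, 524 and 544.

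**Figure D2:**
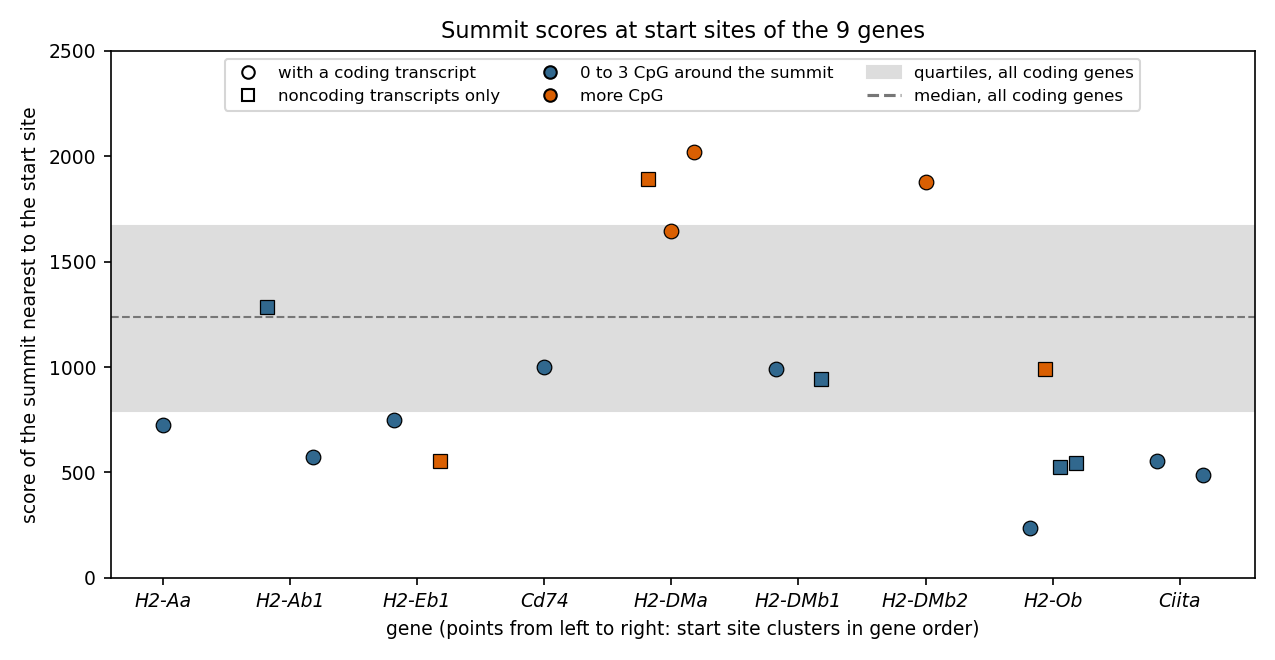
Score of the summit nearest to each start site cluster of the 9 genes, for the 18 clusters with a summit within 1000 bp; blue points have 0 to 3 CpG within 100 bp of the summit, circles have a coding transcript, and the grey band and dashed line give the quartiles and median of 16945 clusters of all coding genes. H2-DMa and H2-DMb2 lie above or near the upper quartile, and H2-Aa, H2-Ab1 (coding), H2-Eb1, H2-Ob (coding) and Ciita lie under the lower quartile.

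Most of these start sites were poor in CpG. Within 100 bp of the summit, 12 of the 18 clusters had 0 to 3 CpG, where 2508 of the 14943 start site summits of all coding genes did. Over those 14943 summits the median was 14 CpG (quartiles 6 and 21). H2-Eb1 had 0 CpG, H2-DMb1 and H2-Ob 1, H2-Ab1 and Cd74 2 and H2-Aa 3 at their coding start sites, whereas H2-DMa had 9 at chr17:34135628 and H2-DMb2 had 7. Among the 2508 start site summits of all coding genes with 0 to 3 CpG the median score was 727, among the 7975 with 14 or more it was 1381. Set against the CpG-poor summits alone, H2-Aa lay above 49.6%, H2-Eb1 above 51.2%, H2-Ab1 above 34.6%, H2-DMb1 above 67.7%, Cd74 above 68.3% and H2-Ob above 2.43% of them at their coding start sites. Ciita had 0 CpG at the summit of the second of its start site clusters, which lay above 31.9% of the CpG-poor summits, and 2 CpG at that of the third, above 24%.

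Ciita, the coactivator gene, had 8 annotated start sites in 3 clusters, and 5 of the 8 had a reference peak within 1000 bp. The most upstream cluster, chr16:10480059-10480164, holds the start sites of Ciita-205, Ciita-206 and Ciita-207 and had no listed peak. The nearest summit was 3941 bp upstream with a score of 1071, and the gap between the listed summits on both sides was 11943 bp. The second cluster, at chr16:10488178 for Ciita-202 and chr16:10488279 for Ciita-201, had a summit 117 bp upstream of its first site with a score of 554, above 11.9% of start site summits. The third cluster, chr16:10489746-10489783, holds the start sites of the coding transcripts Ciita-203, Ciita-204 and Ciita-208. Its nearest summit was 468 bp upstream of the first site with a score of 486, above 8.29%, and the peak ended 381 bp before that site.

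The stretch directly upstream of the third cluster is shown because it holds the letters of the known interferon gamma elements, while the listed peak lies before it. Capitals mark matches on either strand to STAT (TTCNNNGAA), the E-box (CACGTG), IRF (GAAANNGAA), AP-1 (TGANTCA) or the CCAAT box (CCAAT). The coordinates are on mm10 and the letters are on the plus strand.
Ciita, 200 bp before the third cluster, chr16:10489546-10489745: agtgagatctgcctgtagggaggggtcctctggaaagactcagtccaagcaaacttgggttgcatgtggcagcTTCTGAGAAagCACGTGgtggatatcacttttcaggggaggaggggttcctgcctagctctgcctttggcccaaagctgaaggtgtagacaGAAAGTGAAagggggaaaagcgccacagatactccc
Ciita, reference peak before the third cluster, chr16:10489197-10489365: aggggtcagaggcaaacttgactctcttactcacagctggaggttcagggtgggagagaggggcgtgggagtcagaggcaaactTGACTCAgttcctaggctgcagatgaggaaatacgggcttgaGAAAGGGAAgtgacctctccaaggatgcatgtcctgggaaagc
Ciita, reference peak before the second cluster, chr16:10487974-10488147: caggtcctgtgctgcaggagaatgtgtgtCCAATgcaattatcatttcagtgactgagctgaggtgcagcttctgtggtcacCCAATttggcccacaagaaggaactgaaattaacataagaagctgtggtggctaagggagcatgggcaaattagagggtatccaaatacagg
The STAT match began 127 bp, the E-box match 116 bp and the IRF match 36 bp upstream of the first start site of the third cluster. They began 254, 265 and 345 bp past the end of the reference peak. The 3 motifs were chosen because this promoter is known for them, so that finding them here is a description. The reference peak before the third cluster held an AP-1 and another IRF match, and the peak before the second cluster held 2 CCAAT boxes. No peak at the 3 elements themselves was listed.

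The remaining summits of the Ciita window lay in its introns and upstream. The gene body of Ciita held 7 summits with scores from 266 to 1332. The highest, at chr16:10498335, and its neighbour at chr16:10496202, with 1048, lay in an intron 8552 bp and 6419 bp past the nearest start site of Ciita. Both exceeded the scores at the start sites. The best scored summit of the whole window, 1418 at chr16:10452726, was nearer to Tvp23a than to Ciita.

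**Figure D3:**
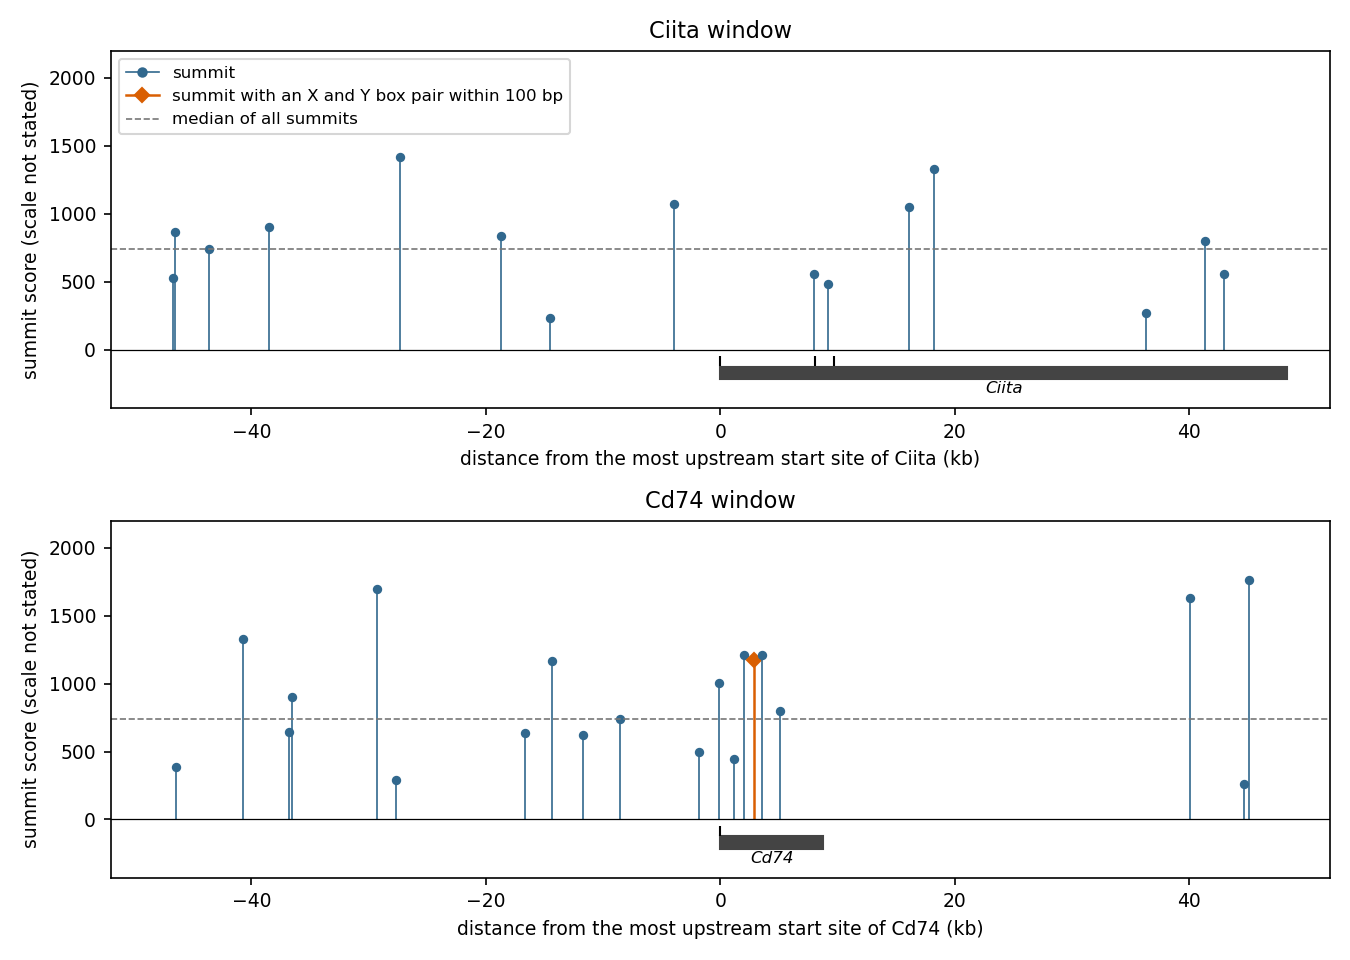
Scores of all summits in the windows of Ciita (top) and Cd74 (bottom) against the distance in kb from the start site furthest upstream; the dark bar is the gene body, the short strokes above it are start site clusters, and the dashed line is the median of all summits, 737. Ciita has no summit at its most upstream start site, and Cd74 has a group of 5 summits inside the gene.

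Box pairs occurred at accessible sites other than these start site summits as well. Of the 107 summits in the windows, 9 had a pair of up to 2 mismatches within 100 bp (8.41%), where 0.449% of all 84660 summits had one. Of the 9, 4 were the start site summits of H2-Aa, H2-Eb1, H2-Ob and H2-DMb1, 4 lay over 1000 bp from the start sites of the 9 genes, and 1 lay 945 bp upstream of H2-Eb1. The pairs that can be printed are these, from the X to the Y core, with the cores in capitals.
Before H2-Oa, chr17:34079762-34079802, minus strand: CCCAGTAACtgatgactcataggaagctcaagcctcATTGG
Before H2-Ab1, chr17:34261685-34261726, minus strand: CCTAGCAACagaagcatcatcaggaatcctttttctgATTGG
Before H2-Ea-ps, chr17:34347716-34347758, plus strand: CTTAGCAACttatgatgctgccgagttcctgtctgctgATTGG
The pair before H2-Ab1 matched the X core in all 9 letters and lay inside the peak of a summit that scored 1048, 1504 bp upstream of the coding start site and in an intron of the noncoding transcript. The coding start site summit of H2-Ab1 had a lower score (573) and the poorer match, and the summit at the noncoding start site, with 1284, a higher score. The pair before H2-Ea-ps had 1 mismatch, and its summit, 3157 bp from the start site of that pseudogene, scored 1320. The pair before H2-Oa, the alpha chain partner of H2-Ob, had 2 mismatches, and its summit scored 956 and lay 12569 bp upstream of H2-Oa. The other pairs were the one in Cd74 and one with 2 mismatches at the summit upstream of H2-Eb1, which scored 644.

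Cd74, the invariant chain gene on chromosome 18, had a compact group of summits. Beside the summit at its start site (1002), 5 summits lay in the gene body, at 1146, 2007, 2854, 3539 and 5014 bp from the nearest start site of the gene, all downstream, with scores of 448, 1212, 1176, 1212 and 802. The summit with 1176 held a box pair with 2 mismatches within 100 bp. The best scored summit of the window, 1760 at chr18:60848968, belonged to the start site of the neighbouring gene Tcof1.

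The 7 class II genes of chromosome 17 shared 1 stretch of accessible sites. Their windows joined into chr17:34069541-34355867, with 45 extended regions, 67 reference peaks and 72 summits, 41 of the summits in the windows of 3 or more of the genes. Start sites of 15 protein-coding genes lay in this stretch, among them the class I genes Tap1, Tap2, Psmb8 and Psmb9, so that only 23 of the 45 regions had one of the 7 genes as the nearest. The windows of Ciita (13 extended regions) and Cd74 (12) stood alone. The median score was 791 on chromosome 17, 802 in the Ciita window and 851 in the Cd74 window, against 737 over all summits.

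**Figure D4:**
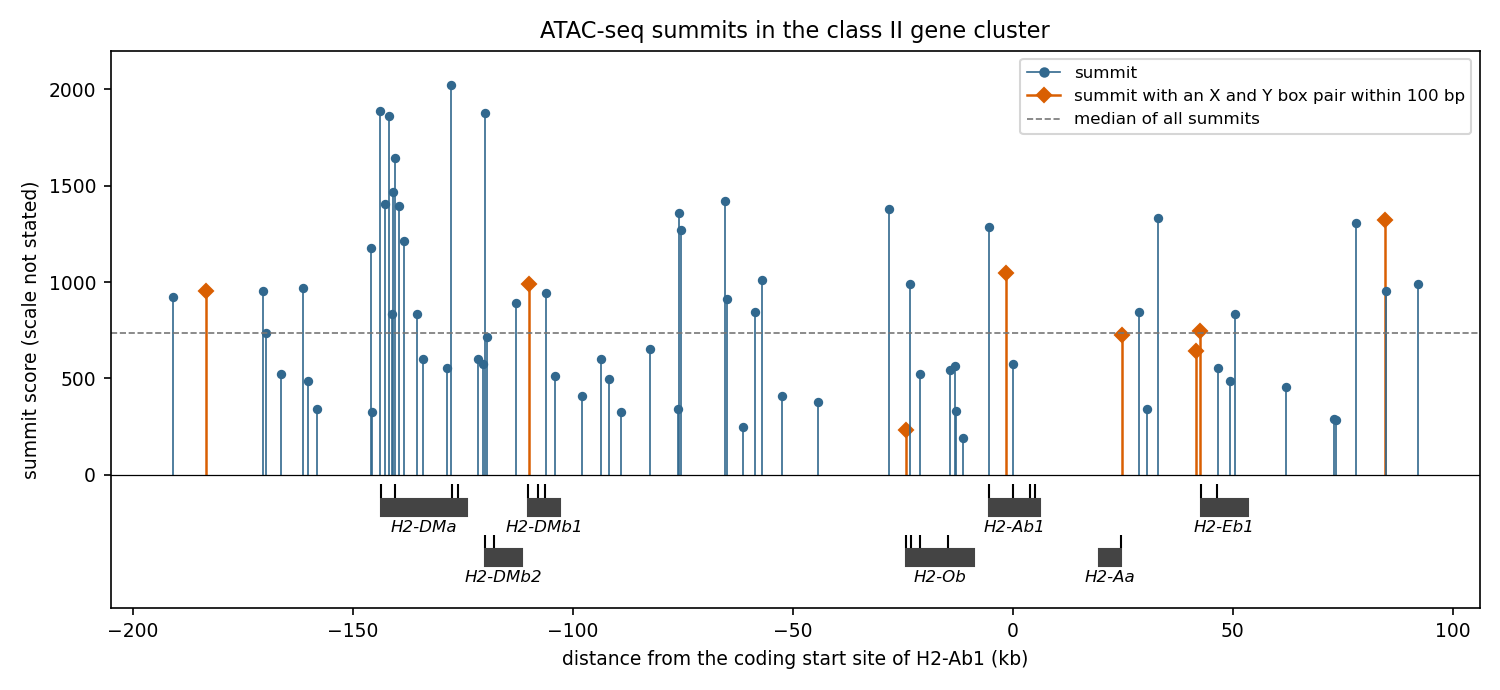
Scores of the 72 summits of the class II cluster against the distance from the coding start site of H2-Ab1 in kb; orange diamonds have a box pair of up to 2 mismatches within 100 bp, dark bars are gene bodies with start site clusters as short strokes, and the dashed line is the median of all summits, 737. The highest scores gather at H2-DMa, its neighbour Brd2 (not drawn) and H2-DMb2, and no summit lies between the H2-Ab1 and H2-Aa start sites.

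Between the start site summits of H2-Ab1 and H2-Aa no summit was listed over 24698 bp, a gap wider than 82.5% of all gaps between neighbouring summits (median 5029 bp). It holds the whole of H2-Aa and all of H2-Ab1 that lies downstream of its coding start site. In that gap 99.2% of 76-base and 93.8% of 38-base stretches had a single place in the genome. The summit names carry the number of the peak in the authors' merged call, which rose with position on every chromosome. In this gap 6 numbers were missing from the list, and 5 were missing around the most upstream Ciita cluster, so that peaks of the merged call there were not kept in the deposited list, as far as the names tell. Over the class II cluster 53.3% of the numbers were listed, in the Ciita window 37.8% and in the Cd74 window 42.5%, against 32.1% over all chromosomes.

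Upstream of H2-Aa, the next 3 summits lay 3963, 5919 and 8429 bp from its start site, with scores of 845, 341 and 1332. Upstream of H2-Ob a summit that scored 1381 lay 3749 bp from its start site. The summits with 1381 and 1332 here, and the intronic one of Ciita at chr16:10498335, were the best scored ones over 1000 bp from any start site that had one of the 9 genes as the nearest coding gene, and 60 bp to each side of each is shown on the plus strand, with motif matches in capitals.
H2-Ob upstream, chr17:34235094-34235214: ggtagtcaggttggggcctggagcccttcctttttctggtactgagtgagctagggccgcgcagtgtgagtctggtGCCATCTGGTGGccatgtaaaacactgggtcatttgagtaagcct
H2-Aa upstream, chr17:34296192-34296312: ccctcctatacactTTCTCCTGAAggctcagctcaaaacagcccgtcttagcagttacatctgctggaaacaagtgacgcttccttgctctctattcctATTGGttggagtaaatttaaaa
Ciita intron, chr16:10498275-10498395: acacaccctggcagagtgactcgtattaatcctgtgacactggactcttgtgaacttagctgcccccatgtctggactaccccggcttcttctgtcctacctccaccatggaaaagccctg
The H2-Ob stretch held a match to CTCF, the H2-Aa stretch a match to STAT6 (TTC and GAA spaced by 4 bases) and a CCAAT box, and the Ciita stretch held none of the motifs searched. Within 100 bp of the summit, which is wider than the letters shown, the H2-Aa and the Ciita summit each had a match to NF-kB.

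Within 100 bp of the 107 summits, the CCAAT box stood at 34.6% (all summits 22.4%), IRF at 14% (8.12%), NF-kB at 7.48% (5.55%), STAT6 at 8.41% (6.81%) and CTCF at 3.74% (3.03%). AP-1 stood at 11.2% (19.4%), the PU.1/ETS motif GAGGAAGT at 7.48% (9.08%), STAT at 4.67% (6.35%) and the E-box at 5.61% (4.8%). The Y core is itself a CCAAT box on the other strand.

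The surroundings of all 9 genes were rich in accessible regions. They had 12 (Cd74) to 19 (H2-DMb1 and H2-DMb2) extended regions within 50000 bp, where all protein-coding genes had a median of 4 (quartiles 1 and 8), and genes with a start site peak a median of 7. These counts lay above 92.1% to 99.8% of all protein-coding genes. The 7 genes on chromosome 17 share most of their regions, so that their counts are not separate observations, and they lie among 4 to 7 protein-coding start sites each, where the median gene has 3. Of the 107 summits, 51 lay in introns, 38 outside protein-coding genes, 15 in untranslated and 3 in noncoding exons, and 0 in coding exons. The shares of these places over all summits are not given here, so that nothing is read from the counts. Within 1000 bp of a start site of any gene lay 41.1% of the 107 summits, against 29.3% of all summits.

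**Figure D5:**
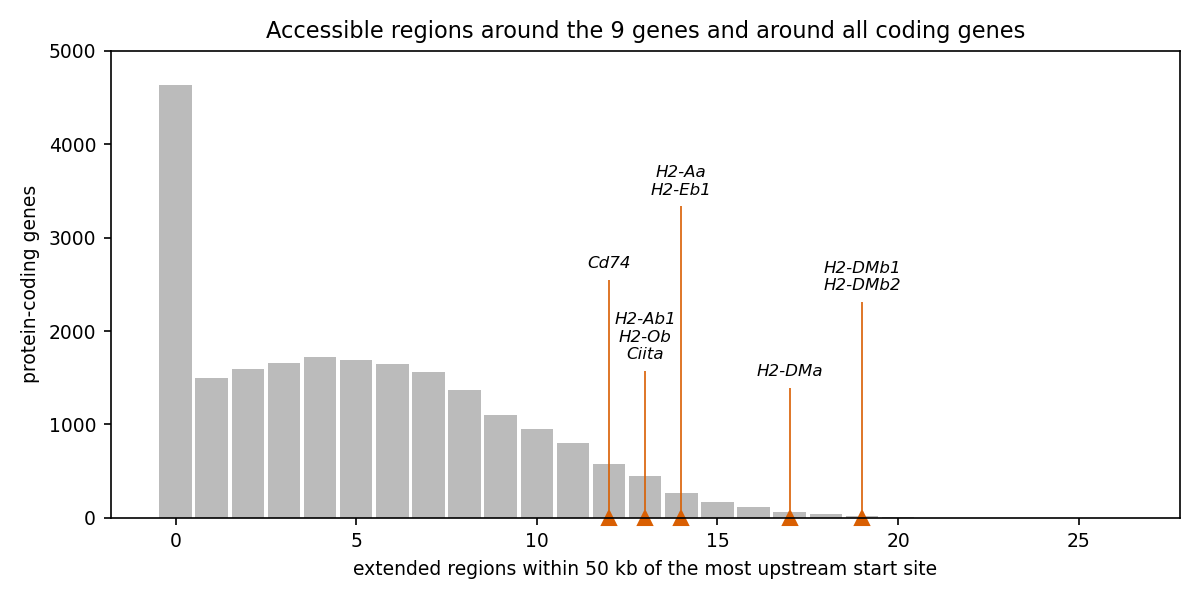
Number of protein-coding genes (bars) by the number of extended regions within 50 kb of the most upstream start site; orange lines and triangles mark the 9 genes, and the height of a line has no meaning. The genes lie between 12 and 19 regions, in the upper tail of the distribution.

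Other genes of the pathway were counted in lists, with the best scored summit within 1000 bp of any start site as the value of a gene. The share of all protein-coding genes with a start site peak, 56.5%, is the background of each count. All 7 genes of the class II regulators (Rfx5, Rfxap and Rfxank of the RFX complex, Nfya, Nfyb and Nfyc of NF-Y, and Creb1) had a start site peak, with best scores of 769 for Rfxap to 1969 for Nfyb and a median of 1786. All 7 genes of peptide processing, most of them proteases of the endosome, had one, with 573 for the thiol reductase gene Ifi30 to 1864 for Ctsd. All 9 genes of the class I pathway had one, with scores of 1013 to 1916 and a median of 1418. Of the other class II genes, H2-Oa (956) and H2-Eb2 (458) had a peak and H2-Ea-ps had none. H2-Ea-ps is the alpha chain partner of H2-Eb1, and the C57BL/6 strain is known to carry a deletion in its promoter.

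The label of the cells was set against start site peaks of marker genes. All 8 macrophage markers had one, with scores of 1176 to 2021, 3 of 5 B cell markers (Pax5, Ms4a1 and Cd22, 505 to 1013), 2 of 5 dendritic cell markers (Flt3 and Zbtb46), 1 of 5 T cell markers (Lck) and 0 of 4 epithelial markers. The shares of B cell (60%) and dendritic cell markers (40%) lie near the 56.5% of all protein-coding genes, so that nothing is read from them. B cells and dendritic cells also express class II genes, and their part in the peaks described here was not tested. As the lists hold no value per cell, fewer open cells and less open chromatin per cell cannot be told apart.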

How the data were processed

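ATAC-seq had been run on 18 libraries of BMDMs as single-end reads of 76 bases. The authors removed adapters with BBDuk, trimmed with Trimmomatic (0.39), aligned to mm10 with ShortStack, filtered with SAMtools (1.9) and called peaks with MACS2 (2.2.6), with duplicates kept, so that PCR copies can add to a peak. Reference peaks are those seen in replicates at a strict q-value. The 3 deposited BED lists (reference peaks, extended regions, summits) pool all libraries. The deposited summit score has no stated scale and was used as it stands. With 0 columns per library, no depth, precision or test was possible, and the comparison of stimuli and times was not made.

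Start sites came from GENCODE M21 and sequence from GRCm38.p6 (mm10 coordinates on the primary chromosomes). Distances, motif matches and counts were computed with Python 3.11.15 (numpy 2.4.6, pandas 2.3.3), and the motif, overlap and uniqueness steps were tested on simulated data. The members, gene lists and motifs were chosen with earlier results of these data known. The genes named are the 9 members, list genes whose start site status differs from most of their list, and genes nearest to the 5 best scored summits of the windows. Others were named after their values were seen. No sequence of chromosome 18 is reported here.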

Additional observations from a re-analysis of the deposited data

How the results depend on the processing

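The 70 extended regions in the windows became 44 with windows of 20000 bp, 24 with the gene bodies alone, and 100 with 100000 bp. The 107 summits became 70 with 20000 bp, 155 with 100000 bp, and 59 when summits under the median score were left out. The 4 genes with a box pair upstream became 2 with up to 1 mismatch and 6 with up to 3. The 9 genes with a start site peak stayed 9 with 500 or 2500 bp, and became 8 with the most upstream start site only, which leaves out Ciita, and 7 with peaks at or above the median score. The 5 Ciita start sites with a peak stayed 5 with 500 and 2500 bp. No paired analysis was possible because the lists carry no value per library, and no replicate could be left out for the same reason. The catalog cannot say in which group a region was open, and a region missing from the list may still have been open.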
